A study of Rattus norvegicus with 11 samples.

Results

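Brain RNA of CSB mutant rats, homozygous for R571X, was compared with that of wild-type rats in the 3 homozygous libraries numbered 4 to 6 and the 3 wild-type libraries numbered 1 to 3. They were chosen by their titles, are 6 of the 11 libraries of the series, and were scaled together by the authors. The homozygous libraries carried the genotype written CSBR571X/R571X and the others were labelled wild type, with no treatment named for either. All 6 came from 10-week-old rats of the strain that the labels spell Sprague-Dawly (SD), and the tissue was labelled cerebellar cortex. The labels do not say whether each library came from a separate rat, how many lines or litters the mutation was kept in, or the sex of the rats, so the p-values below measure only the spread between these libraries, which may in part be technical. Of 24792 features listed in all 6 libraries, 15861 had a mean of at least 5 normalized reads and were tested. Named protein-coding genes made up 7069 of these, out of 11011 listed in the 6 libraries, and they are what is described here.

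CSB, the product of Ercc6, is a DNA-dependent ATPase that binds RNA polymerase II stalled at damage and starts transcription-coupled nucleotide excision repair. Loss of CSB causes Cockayne syndrome, a disorder of growth failure and of degeneration of brain white matter and cerebellum. The interferon response, to which several of the genes below belong, is the set of antiviral genes that cells switch on when interferon receptors activate a complex of transcription factors, among them STAT2 and IRF9, which binds the interferon-stimulated response element, and its members include sensors of foreign RNA and DNA and the machinery that presents peptides to T cells.

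The libraries held 5450053 to 7813701 reads assigned to features, of which 25.1% to 31.5% lay on assembled features without a gene name. In bulk tissue fewer cells of a type and less RNA per cell cannot be told apart. Markers of the labelled tissue were mostly absent or not specific to it. Pcp2, which marks Purkinje cells of the cerebellum, had 0 reads in 5 libraries and 2 in wild-type replicate 1, and 7 of 26 genes on a list of cerebellar markers were listed at all. The 3 of them that reached the minimum level were Pcp4 (2047 to 8784 reads), Calb1 (1295 to 2175) and Neurod1 (46 to 259). They were read in every library and are also known from forebrain neurons. Of 25 genes on a list of the cerebral cortex, 13 were listed and 9 reached the minimum level. Some of those listed were near 0 as well, among them Bcl11b and Mef2c with 0 to 2 reads each. Neurod6, a regulator of pyramidal neurons in cortex and hippocampus, had 323 to 2391 reads. Slc17a7, a vesicular glutamate transporter that does not tell cerebral from cerebellar cortex, had 16454 to 35621. The libraries also differed in marker genes of brain regions. Homozygous replicate 4 stood apart in genes of the striatum, with 875 reads of the dopamine receptor gene Drd2 against 21 to 327 elsewhere. Homozygous replicate 6 stood apart in genes of dopamine neurons and of the hindbrain, with 1252 reads of the dopamine-synthesis gene Th against 20 to 35 elsewhere and 63 reads of Hoxb3 against 0. Eif2s3y, a Y-linked gene, was read 890 times in homozygous replicate 4, 1875 times in homozygous replicate 6 and not at all in the remaining 4 libraries, which include the whole wild-type group. Ddx3y, also Y-linked, had few reads and did not split the libraries in this way. It had 1, 2 and 13 reads in homozygous replicates 4, 5 and 6. The wild-type replicates 1, 2 and 3 had 2, 9 and 8. Wild-type replicate 1 was highest in the lists of microglia, macrophages, meninges, endothelium and blood. These differences run through the comparison, and their part in the results below was not tested except where values without a library are given.

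Across the comparison as a whole, few features passed the threshold, a Benjamini-Hochberg adjusted p under 0.05 in limma on log2(normalized reads + 1). Of all 15861 features tested, 3 passed (0.0189%), all lower in the homozygous libraries and none with a gene name. No named protein-coding gene passed (0 of 7069, or 0%), and the smallest adjusted p among them was 0.152. At an unadjusted p under 0.05 there were 357 (5.05%), of which 262 were higher and 95 lower in the homozygous libraries. The homozygous values lay above every wild-type value for 535 genes (7.57%) and below every one for 267 (3.78%), and 134 and 71 of these differed by more than 2-fold in limma's fit. The edgeR quasi-likelihood test and limma-voom on the recovered reads called 0 named genes as well, while DESeq2 called 18 of the 7044 to which it gave an adjusted p (0.256%). The genes named from here on are therefore given by their values, and DESeq2 is named wherever its call is used. The log2 difference was positive for 4017 genes (56.8%), with a median of 0.06 over named genes against 0.00 over all features. This share of 56.8% stands beside every count of positive members below, also where it is not repeated. A typical gene's difference had a standard error of 0.37 (median) on the log2 scale. Pairs of libraries of the same genotype differed about as much as pairs of different genotypes, with an SD of the log2 difference over named genes of 0.78 to 1.13 within groups and 0.82 to 1.23 between them.

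**Figure D1:**
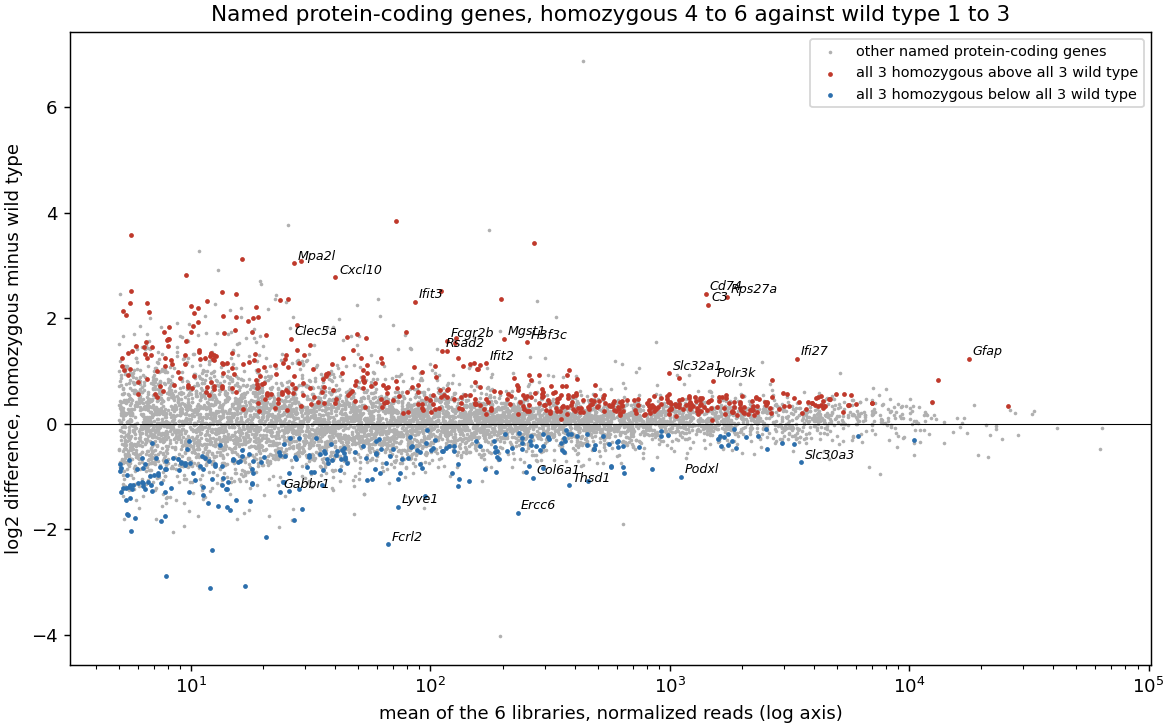
Each point is 1 of the 7069 named protein-coding genes tested, with its mean over the 6 libraries in normalized reads on a log x axis and its log2 difference, homozygous minus wild type, on the y axis. Red points (535) have all 3 homozygous libraries above all 3 wild-type ones and blue points (267) have them below; Cd74, C3, Cxcl10, Ifit3 and Ifi27 stand out above the body of genes at their level, and Ercc6 and Fcrl2 below it.

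Ercc6, the mutated gene (chromosome 16, 8734035 to 8804610 on the plus strand, rn6), was the named gene with the smallest p. It had 122.8, 119 and 85.8 normalized reads in homozygous replicates 4, 5 and 6 and 295.4, 407.3 and 356.2 in wild-type replicates 1, 2 and 3. Every homozygous library was below every wild-type one, at 30.9% of the wild-type mean. The log2 difference was -1.69 (SE 0.24, adjusted p = 0.152 in limma), and the exact two-sided permutation p was 0.1, the smallest that 3 against 3 libraries allow. DESeq2 called Ercc6 (adjusted p = 6.14e-06), as did a limma fit that held all 11 libraries with a term for the normalization set (adjusted p = 0.0169). The difference in that fit is the same contrast of these 6 libraries, with the spread taken over all 11. In homozygous replicates 1 to 3, which were scaled in another set, it had 156.5, 157.9 and 152.8 normalized reads. Of the other genes of nucleotide excision repair, 11 of 25 were listed and 5, Ercc6 among them, reached the minimum level. Ddb1, a subunit of the damage-recognition ligase, differed by 0.11 (SE 0.17). Uvssa, which acts beside CSB at stalled polymerase, had 10.5, 15.9 and 26.7 normalized reads against 21.9, 28.2 and 20.8, so its groups overlapped.

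Of the 12 higher genes named by the smallest p, 4 were on the interferon list. Of 56 genes on the interferon list, 39 were listed and 34 reached the minimum level. The difference was positive for 32 of the 34, against 56.8% of all named genes, and 11 of the 34 had all homozygous libraries above all wild-type ones, against 7.57%. None passed the threshold in limma, 17 had an unadjusted p under 0.05, and DESeq2 called 4, namely Ifit3, Ifi27, Ifit2 and Rsad2. The median log2 difference of the 34 was 0.96, against 0.00 over all features tested, and it stayed between 0.72 and 1.26 when any 1 library was left out. For homozygous replicate 5 alone, which held no Eif2s3y reads, the median against the wild type was 0.98.

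The promoters of 3 of these genes are shown because they are among those DESeq2 called and hold the letters GAAA followed by any 2 bases and GAAA again, a simple form of the interferon-stimulated response element, searched on both strands. Each runs from 250 bases before to 50 bases after the RefSeq start site (GRCr8), 5′ to 3′ in the direction of the gene, with matches in capitals. A match that reads TTTC, any 2 bases and TTTC is the same motif on the other strand.
Ifit3, chr1:241527076-241527375, plus strand: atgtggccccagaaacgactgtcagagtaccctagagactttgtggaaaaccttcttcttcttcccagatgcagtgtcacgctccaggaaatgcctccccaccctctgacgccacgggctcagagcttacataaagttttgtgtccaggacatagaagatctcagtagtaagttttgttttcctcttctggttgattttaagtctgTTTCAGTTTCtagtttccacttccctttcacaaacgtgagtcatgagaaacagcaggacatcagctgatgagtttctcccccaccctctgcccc
Ifi27, chr6:128355062-128355361, plus strand: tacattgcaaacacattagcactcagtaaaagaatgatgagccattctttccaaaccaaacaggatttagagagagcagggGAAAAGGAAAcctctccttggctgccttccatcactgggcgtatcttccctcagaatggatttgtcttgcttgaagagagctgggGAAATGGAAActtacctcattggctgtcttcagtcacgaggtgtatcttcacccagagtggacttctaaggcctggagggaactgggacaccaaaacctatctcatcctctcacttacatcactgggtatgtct
Rsad2, chr6:48788071-48788370, minus strand: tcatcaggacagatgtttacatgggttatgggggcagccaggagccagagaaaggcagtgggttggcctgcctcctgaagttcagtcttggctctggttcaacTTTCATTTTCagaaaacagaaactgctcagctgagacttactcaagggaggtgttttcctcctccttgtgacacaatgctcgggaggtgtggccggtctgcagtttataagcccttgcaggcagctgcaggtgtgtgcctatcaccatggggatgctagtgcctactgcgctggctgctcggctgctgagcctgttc

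The match began 44 bases before the start site in Ifit3, 169 and 84 bases before it in Ifi27, and 147 bases before it in Rsad2. RefSeq held 29 promoters for 28 of the 36 genes sought, which were the 34 tested interferon genes with Cxcl10 and Cxcl11, and 20 of the 29 (69.0%) held the motif. It was in 3.92% of all 33469 promoters of the table and in 3.28% of the 5758 promoters of named protein-coding genes tested. The genes of the list were put there as known interferon targets, so this share describes the list and not these libraries. Cxcl10 had a match 243 bases before its start, Gbp2 31 bases before and Ifitm3 44 bases before, while Cxcl11 had none in this window.

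Ifit3, which encodes an antiviral protein with tetratricopeptide repeats, had 180, 135 and 114 normalized reads in the homozygous libraries and 43.8, 19.7 and 24.1 in the wild-type ones. The lowest homozygous value was thus above the highest wild-type value, and the group means differed 4.90-fold (log2 2.31, SE 0.36, adjusted p = 0.227 in limma). Its neighbour Ifit2, of the same family, had 244, 223 and 236 against 124, 93.9 and 100 (log2 1.15, SE 0.21). The homozygous values of Ifit2 lay within a narrow range and again did not overlap the wild type. Ifit1, the founding member of the family, had 115, 119 and 98.3 against 132, 58.2 and 70.6, so the groups overlapped and wild-type replicate 1 held the highest value. Ifi27, which encodes a small membrane protein found at mitochondria and the nuclear envelope, had 5573, 4154 and 4584 against 2421, 1644 and 2053 (log2 1.23, SE 0.21, adjusted p = 0.255 in limma). Rsad2, which encodes viperin, a radical SAM enzyme that makes an antiviral nucleotide, had 172, 131 and 177 against 86.4, 46.0 and 54.8. Its groups were apart in all 6 libraries, with wild-type replicate 1 the nearest to the homozygous ones.

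Other members showed a similar arrangement. Usp18, the protease that removes ISG15 and dampens interferon signalling, had 260, 117 and 190 normalized reads against 100.7, 43.2 and 52.3, and Isg15 itself, a ubiquitin-like modifier, 212, 180 and 169 against 125, 32.9 and 52.3. In both, the groups did not overlap and wild-type replicate 1 was the highest of its group. Oas1b, of the oligoadenylate synthetase family, had 286, 144 and 218 against 99.6, 101.4 and 99.6 (log2 1.05, SE 0.28), with the wild-type libraries almost level. Zbp1, a sensor of left-handed nucleic acid, had few reads, with 17.5, 27.2 and 9.16 against 5.47, 3.75 and 0.83. For the RNA sensor Ifih1 (171, 185 and 127 against 128, 59.1 and 75.6) homozygous replicate 6 lay just inside the wild-type range. The signalling genes themselves did not stand apart. Stat2 had 98.2, 103 and 55.0 against 102, 66.6 and 98.0, and Irf8, which microglia also express, 424, 495 and 317 against 768, 207 and 254.

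**Figure D2:**
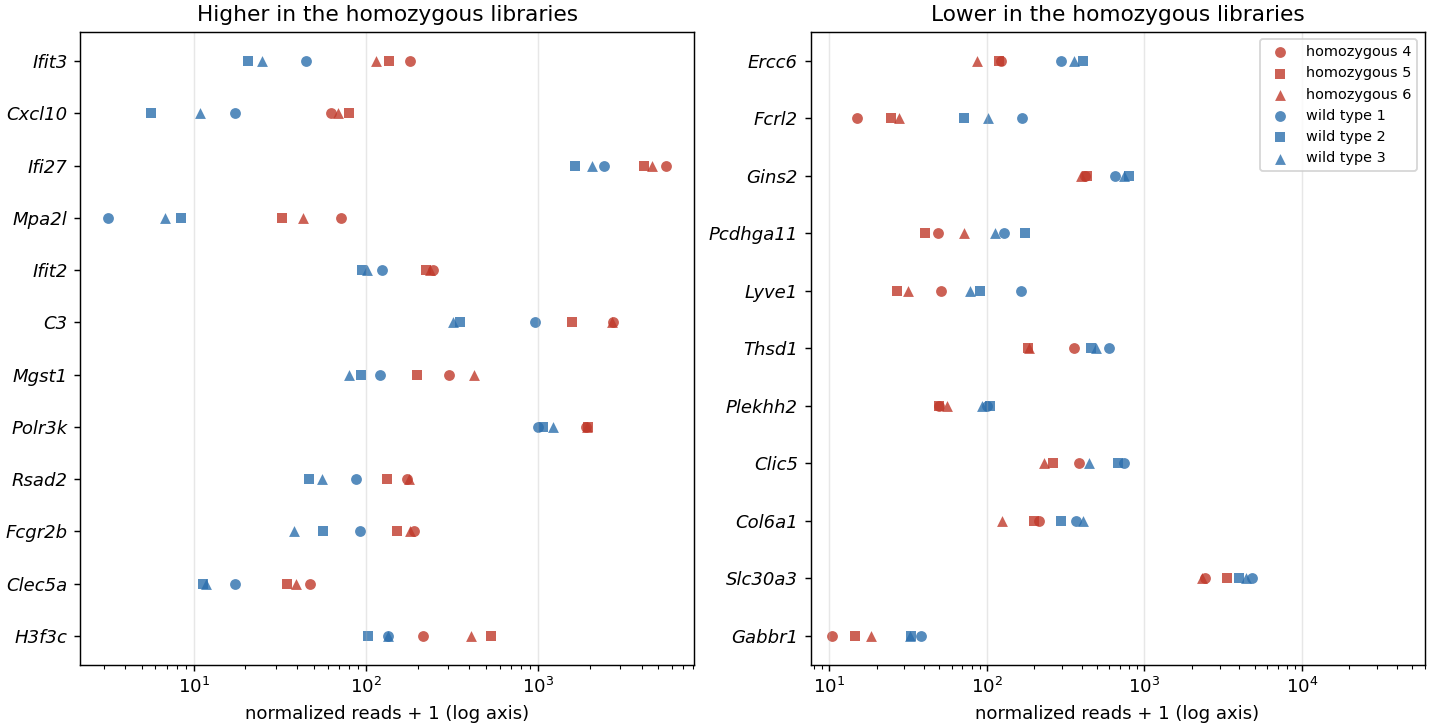
Normalized reads plus 1 in each of the 6 libraries (log x axis) for 12 higher and 11 lower genes, those of smallest p whose groups do not overlap and whose mean is at least 20; red symbols are homozygous replicates 4 to 6 and blue symbols wild-type replicates 1 to 3. Each gene shows a gap between red and blue, widest for Mpa2l and Cxcl10 on the left and for Fcrl2 and Ercc6 on the right.

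Mpa2l, a member of the guanylate-binding protein family in rat, had the largest fold of the 12 higher genes named by rule. It had 71.3, 31.7 and 42.5 normalized reads against 2.19, 7.51 and 5.81 (log2 3.04, SE 0.52), with every homozygous library above every wild-type one. DESeq2 called it, but another listed feature overlaps it on the same strand, so its reads may be divided between them. Gbp2 had 265, 175 and 154 against 148, 58.2 and 76.4, a small gap between homozygous replicate 6 and wild-type replicate 1. In the homozygous replicates 1 to 3, scaled separately and set beside the same wild-type libraries here, Ifit3 had 46.9, 96.4 and 125 normalized reads, Ifi27 1755, 3397 and 2819 and Rsad2 144, 118 and 287. Ifi27 in replicate 1 was thus inside the wild-type range. The mean log2 level of the 34 interferon genes was 5.69, 5.71 and 6.45 in those 3 libraries, beside 6.60, 6.38 and 6.16 in homozygous replicates 4 to 6 and 6.07, 5.06 and 5.15 in the wild type. Wild-type replicate 1 thus lay nearer to homozygous replicates 4 to 6 than to the other wild-type libraries, and above homozygous replicates 1 and 2.

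Genes of antigen presentation were also higher for the most part. Of the class I list, which supplies peptides to CD8 T cells, 15 genes were tested, 13 had a positive difference (56.8% of all named genes had), 5 lay wholly above the wild type (7.57% of all), and 7 had an unadjusted p under 0.05 (5.05% of all). The median log2 difference was 0.82 (0.51 to 1.12 when 1 library was left out). The mean log2 level of the 15 was 6.36, 6.28 and 6.13 in the homozygous libraries and 6.35, 5.14 and 5.515 in the wild type. Wild-type replicate 1 thus lay among the homozygous libraries. B2m, the light chain of class I molecules, had 19820, 15403 and 14553 normalized reads against 13978, 6607 and 8694 (log2 0.82, SE 0.28). Its lowest homozygous value exceeded the highest wild-type value by little, because wild-type replicate 1 held far more than the other wild-type libraries. Psmb8, a subunit of the immunoproteasome, had 185, 236 and 199 against 141, 59.1 and 93.8. The class I heavy chain RT1-A1 had 113, 63.5 and 84.96 against 44.9, 38.5 and 30.7, and RT1-CE5 38.6, 29.5 and 23.3 against 12.04, 7.51 and 1.66. Reads of RT1 genes can be split between near-identical copies, so these values are uncertain. RT1-T24-4 showed 42.7 normalized reads in wild-type replicate 1 alone and 0 in each of 5 libraries.

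The class II list, which presents peptides to CD4 T cells and is expressed in brain mainly by activated microglia and other myeloid cells, had 10 tested genes, of which 9 were positive, 2 lay wholly above the wild type and 4 had an unadjusted p under 0.05, against the same shares of 56.8%, 7.57% and 5.05%. The median log2 difference was 0.94 (0.81 to 1.26 with 1 library left out). Cd74, the invariant chain, had 2065, 2665 and 2090 normalized reads in the homozygous libraries and 1240, 235 and 233 in the wild type (log2 2.46, SE 0.58, adjusted p = 0.623 in limma). Every homozygous library was higher, but wild-type replicate 1 held over 5 times as much as the other wild-type libraries. Without that replicate, Cd74 had a log2 difference of 3.26 and passed the threshold in limma. RT1-Db1, a class II beta chain, had 293, 443 and 218 against 153, 33.8 and 38.2, the same arrangement. For RT1-Bb the groups overlapped, with 60.8, 145 and 73.3 against 66.8, 5.63 and 9.96, and Ciita, the master activator of class II genes, had 22.2, 24.9 and 11.7 against 13.1, 5.63 and 6.64.

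Among 18 tested chemokines and cytokines, the member with the smallest p was Cxcl10. Cxcl10, which attracts activated T cells, had 62.0, 79.3 and 68.3 normalized reads against 16.4, 4.69 and 9.96 (log2 2.78, SE 0.45, adjusted p = 0.249 in limma), and DESeq2 called it. Even the highest wild-type library was far below the lowest homozygous one. Cxcl11, its neighbour on chromosome 14, had 15.2, 10.2 and 8.33 against 0 in each wild-type library, at least 11.9-fold higher when the wild-type group is set at 3 reads in all. Cxcl9, which binds the same receptor, Cxcr3, had 17.5, 1.13 and 10.00 against 0, 0 and 1.66, so its groups overlapped through homozygous replicate 5. Cxcl13, a B cell attractant, had 23.4, 29.5 and 25.0 against 6.57, 7.51 and 0.83, and Ccl2, which attracts monocytes, 5.85, 11.3 and 9.16 against 1.09, 3.75 and 0. In the whole list 12 of 18 were positive, not far from the 56.8% of all named genes, 5 lay wholly above the wild type (7.57% of all) and 6 had an unadjusted p under 0.05 (5.05% of all). The median was 0.64 (0.37 to 1.08 with 1 library left out, and unchanged with Cxcl11 at its bound), but it was -0.01 over the members with a mean of at least 20, so it rested on genes with few reads. Homozygous replicates 1 to 3 had 37.5, 19.1 and 83.1 normalized reads of Cxcl10.

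In the complement system, 10 of 14 tested genes were positive (56.8% of all named genes) and 3 lay wholly above the wild type (7.57% of all). The median was 0.54, 0.20 without wild-type replicate 2 and 1.16 without wild-type replicate 1. The mean log2 level of the 14 was 7.31, 7.14 and 7.02 in the homozygous libraries and 7.45, 6.02 and 6.27 in the wild type. Wild-type replicate 1 thus lay above every homozygous library. C3, the central component on which all routes of activation converge, had 2744, 1582 and 2680 normalized reads against 957, 350 and 320. It was higher in every homozygous library, 4.31-fold in the group means (log2 2.25, SE 0.42, adjusted p = 0.325 in limma). DESeq2 called it, and limma did so once wild-type replicate 1 was left out. Homozygous replicates 1 to 3 had 2503, 2906 and 3034. The classical-pathway protease C1s had 181, 125 and 233 against 108, 35.7 and 98.0, and C4a 31.6, 22.7 and 15.8 against 13.1, 5.63 and 2.49. Reads of C4a and C4b can be split between the 2 near-identical genes. C1qb, made by microglia, had 1747, 1594 and 1119 against 1955, 836 and 885, so the groups overlapped.

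Fcgr2b and Clec5a, 2 receptors of myeloid cells, were among the higher genes named by p. Fcgr2b, the inhibitory receptor for IgG, had 189, 152 and 179 normalized reads against 91.9, 55.4 and 37.4, and Clec5a, an activating lectin receptor of myeloid cells, 46.8, 34.00 and 38.3 against 16.4, 10.3 and 10.8. Neither pair of groups overlapped, and another feature overlaps Fcgr2b on the same strand. Other receptors of such cells had negative differences with overlapping groups, among them C5ar1 (-0.60) and C3ar1 (-0.53), which bind complement fragments, the scavenger receptor Cd163 (-0.93) and the purine receptor P2ry13 (-0.80). Of 9 tested microglial markers, 7 were positive (56.8% of all named genes) and 0 were free of overlap (median 0.37, 0.15 to 0.76). Their summed level was 3575 to 5019 normalized reads in the homozygous libraries and 2592 to 5900 in the wild type. Aif1, which encodes IBA1, had 1053, 762 and 526 against 808, 268 and 390. The macrophage and granulocyte list had 6 of 11 positive (median 0.05, -0.79 without wild-type replicate 2, -0.55 without homozygous replicate 5 and 0.36 without wild-type replicate 1) and summed to 888 to 2162 against 952 to 2446. The list of T, B, plasma and natural killer cells had 5 of 25 genes at the minimum level, 4 of them positive, with sums of 167 to 220 against 118 to 151. The sums of the microglial and the macrophage lists thus overlapped between groups, whereas those of the T, B, plasma and natural killer list did not, as Cd74, C3 and Cxcl10 did not. The share of cell numbers in the immune differences was not tested.

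Gfap, the intermediate filament of astrocytes that increases in reactive astrocytes, had 27372, 26901 and 19108 normalized reads against 16602, 5832 and 11141 (log2 1.23, SE 0.36). Its groups did not overlap, and wild-type replicate 2 was by far the lowest. The astrocyte list as a whole had 7 of 18 positive with a median of -0.05 (-0.19 to 0.19 with 1 library left out, positive without homozygous replicate 6 or wild-type replicate 1), and its summed level was 121801 to 145439 in the homozygous libraries and 100679 to 162249 in the wild type. Osmr, a receptor subunit induced in reactive astrocytes, had 40.9, 31.7 and 32.5 against 24.1, 26.3 and 20.8, without overlap, whereas the hyaluronan receptor Cd44 (243, 163 and 218 against 223, 80.7 and 112) overlapped.

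**Figure D3:**
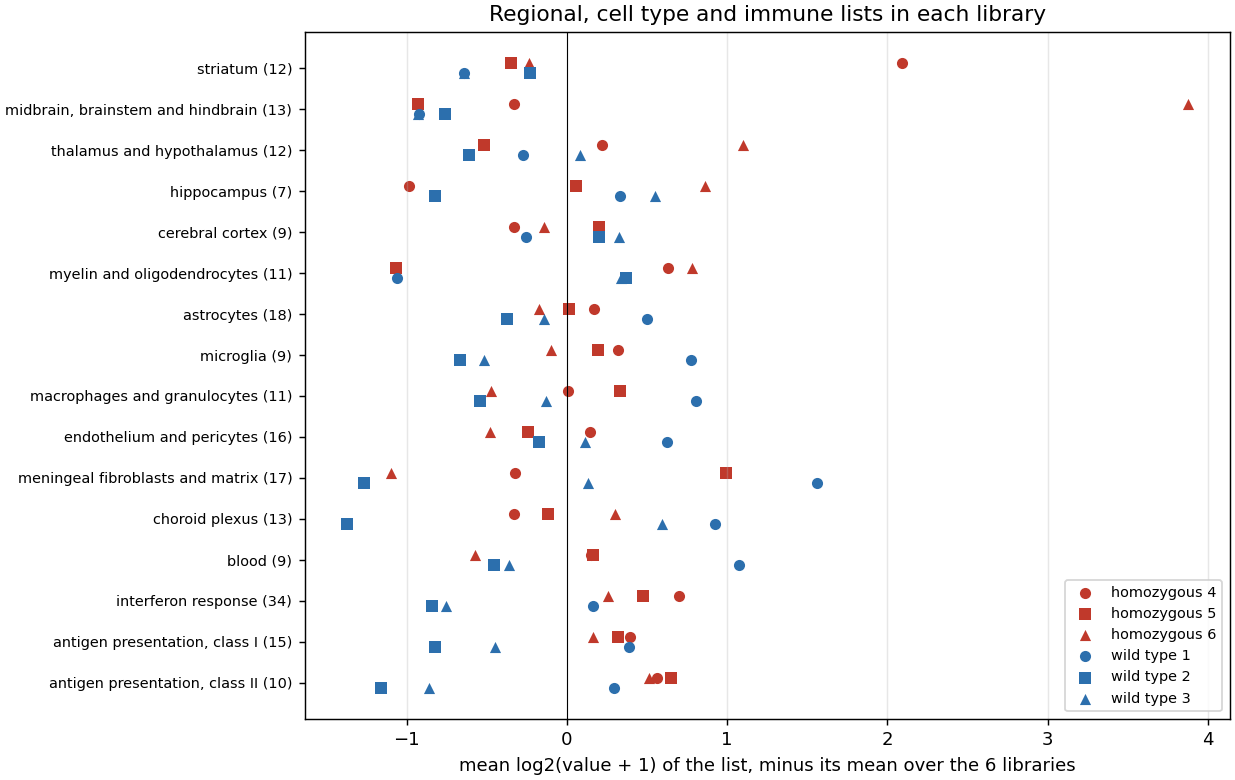
For 16 lists of regional, cell type and immune genes (number tested in brackets), the mean of log2(normalized reads + 1) over the members in each library is drawn on the x axis after subtracting the mean of the 6 libraries; red is homozygous and blue wild type, and the symbol gives the replicate. Homozygous replicate 4 lies alone to the right for striatum and homozygous replicate 6 for midbrain, brainstem and hindbrain, while for the interferon list the 3 homozygous libraries lie right of wild-type replicates 2 and 3 and close to wild-type replicate 1.

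Higher genes outside the immune lists included Mgst1, Polr3k and H3f3c, which DESeq2 called. Mgst1, a membrane-bound glutathione transferase, had 303, 198 and 426 normalized reads against 120, 92.9 and 78.9 (log2 1.61, SE 0.32). Polr3k, a small subunit of RNA polymerase III, had 1908, 1962 and 1925 against 1000, 1069 and 1229. The spread within each group of Polr3k was small, so a difference of 0.82 (SE 0.17) ranked among the first. In homozygous replicates 1 to 3, however, Polr3k had 1145, 1115 and 1017 normalized reads, inside the wild-type range. H3f3c, a histone H3.3 gene without introns whose reads can be shared with near-identical copies, had 213, 534 and 406 against 135, 102 and 134. Another case of likely shared reads was Rps27a, a ribosomal protein gene of which 2 features were tested: the feature on chromosome 14 had 2600, 2729 and 2142 against 53.6, 981 and 1885, and without wild-type replicate 1 its log2 difference was 0.86 in place of 2.41.

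Genes of the nuclear-encoded respiratory chain leaned the same way by small amounts. Of 21 tested features, 20 were positive (56.8% of all named genes) and 10 lay wholly above the wild type (7.57% of all). Of the 21, 4 had an unadjusted p under 0.05 (5.05% of all). The median was 0.35 and stayed at 0.29 to 0.43 with any 1 library left out. Atp5o, a subunit of ATP synthase, had 5841, 5229 and 6645 normalized reads against 3857, 3680 and 4505 (log2 0.56, SE 0.18), and Ndufb9, of complex I, 5225, 4476 and 4554 against 3472, 3029 and 3687. The groups of both were apart. The 4 tested protein-coding genes of the mitochondrial genome had a median of -0.73, with overlapping groups. That median was -0.19 without homozygous replicate 6 and -1.26 without homozygous replicate 5, and for homozygous replicate 5 alone against the wild type it was 0.23. Mt-nd4 had 5126, 9818 and 1855 against 15161, 5965 and 7497, with homozygous replicate 6 lowest and wild-type replicate 1 highest. The cytosolic ribosomal proteins had 23 of 28 positive (56.8% of all named genes), 7 wholly above the wild type (7.57% of all) and 1 below (3.78% of all). Their median was 0.40, with 0.21 without wild-type replicate 2 and 0.58 without homozygous replicate 6. Among the antioxidant enzymes 12 of 15 were positive (56.8% of all named genes). Of the 15, 3 lay wholly above the wild type (7.57% of all) and 0 had an unadjusted p under 0.05. Sod1, the cytosolic superoxide dismutase, had 4189, 3656 and 5087 against 3319, 2967 and 3374.

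Over all named genes, the direction of the difference varied with the span of the gene. Among the 2209 genes that span under 10 kb, 12.3% had all homozygous libraries above all wild-type ones and 2.40% below, with a median log2 difference of 0.14. In the 3168 genes of 10 to 50 kb the shares were 6.63% and 3.79% (median 0.06). In the 1424 genes of 50 to 200 kb they were 3.44% and 5.69% (median -0.04), and in the 268 genes of 200 kb or more 1.49% and 4.85% (median -0.06). The median of the shortest class stayed positive with any 1 library left out (0.12 to 0.17), while that of the longest ran from -0.19 to 0.03. The differences are small beside the standard error of a single gene, and genes are not independent replicates.

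**Figure D4:**
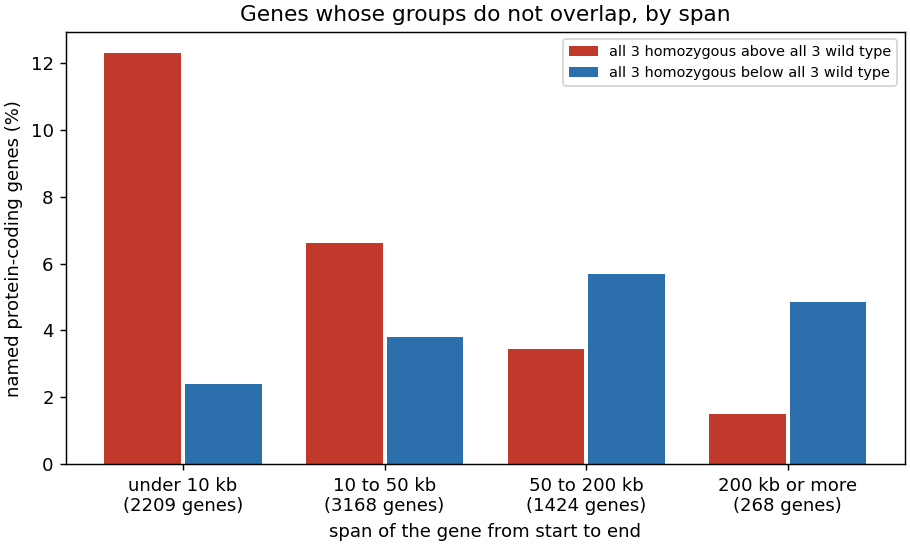
Percentage of named protein-coding genes (y axis, from 0) whose 3 homozygous libraries all lie above (red) or all below (blue) the 3 wild-type libraries, in 4 classes of gene span from start to end (x axis, number of genes in brackets). The red share declines from 12.3% to 1.49% with span and the blue share is 2.40% in the shortest class and 4.85% in the longest.

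Among the lower genes, Fcrl2 and Gins2 were called by DESeq2 beside Ercc6. Fcrl2, an Fc receptor-like gene, had 14.0, 23.8 and 26.7 normalized reads against 165, 70.4 and 100 (log2 -2.29, SE 0.40, adjusted p = 0.255 in limma). Its highest homozygous value was well below the lowest wild-type one, and homozygous replicates 1 to 3 had 26.7, 41.3 and 44.0. Gins2, a subunit of the GINS complex that opens replication forks, had 416, 429 and 393 against 653, 795 and 736 (log2 -0.81, SE 0.18). The homozygous values differed little among themselves. In homozygous replicates 1 to 3 Gins2 had 511, 757 and 596, with replicate 2 inside the wild-type range. Igfn1, an immunoglobulin-domain gene known from skeletal muscle, was called by DESeq2 too, with 2.34, 1.13 and 4.16 against 54.7, 16.9 and 21.6, but in homozygous replicates 1 to 3 it had 55.5, 14.8 and 49.8, which spans the wild-type range. Plekhh2, which binds actin, had 49.1, 48.7 and 55.0 against 99.6, 104 and 92.2, with another feature over it on the same strand. For the 12 lower genes named by p, homozygous replicates 1 to 3 lay wholly below the wild type in 5 and overlapped it in 7. For the 12 higher ones they lay wholly above it in 9 and overlapped it in 3. All these genes were chosen by their gap from the same wild-type libraries, so part of this agreement was fixed in advance. Homozygous replicates 1 to 3 were also scaled in another set, and the share over all named genes was not counted.

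Several of the lower genes belong to blood vessels and their surroundings. Of 16 tested genes of endothelium and pericytes, 2 had a positive difference (56.8% of all named genes) and 14 a negative one. Of the 16, 3 lay wholly below the wild type (3.78% of all) and 3 had an unadjusted p under 0.05 (5.05% of all). The median was -0.36 (-0.53 to -0.14 with 1 library left out). Thsd1, a membrane protein of endothelial cells, had 354, 182 and 183 normalized reads against 600, 457 and 495 (log2 -1.17, SE 0.29). The gap between groups was clear in all 6 libraries, and wild-type replicate 1 was highest. Fgd5, an activator of Cdc42 in endothelium, had 221, 153 and 139 against 440, 297 and 248, and Slco1c1, the thyroid hormone transporter of brain capillaries, 1796, 1590 and 1407 against 2318, 2063 and 2190. Podxl, a sialomucin of the vessel lining, had 1007, 626 and 531 against 2314, 1039 and 1142. Its homozygous replicate 4 came close to the wild type. Col4a1, a collagen of basement membranes, had 537, 402 and 363 against 1183, 671 and 690. Pdgfb, the growth factor by which endothelium recruits pericytes, had 497, 544 and 347 against 986, 764 and 678. Heg1, a receptor of endothelial junctions, had 452, 389 and 371 against 1032, 605 and 567. In homozygous replicates 1 to 3, Podxl and Col4a1 overlapped the wild type, whereas Thsd1, Pdgfb and Heg1 lay below it.

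The summed level of the endothelial list was 8919 to 12846 normalized reads in the homozygous libraries and 10980 to 16738 in the wild type, so the sums overlapped. Lyve1, a marker of macrophages at vessels and in the meninges and of lymphatic endothelium, had 50.3, 26.1 and 30.8 normalized reads against 164, 89.2 and 77.2 (log2 -1.57, SE 0.38). Col6a1, a collagen of fibroblasts, had 213, 199 and 123 against 369, 293 and 409. Neither overlapped. For the meningeal list as a whole, 3 of 17 were positive (56.8% of all named genes) and 14 negative, with a median of -0.58. Without homozygous replicate 6, however, the median was 0.15, and without wild-type replicate 2 it was -1.14. The sums of the list, 2097 to 8347 against 1701 to 12013, overlapped widely. Clic5, a chloride channel protein linked to actin, had 385, 263 and 231 against 737, 677 and 442, again with no overlap.

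Genes of neurons varied between libraries, and so did regional marker genes; the part of regional content was not tested. All 12 tested striatal genes and all 13 of midbrain, brainstem and hindbrain were positive (56.8% of all named genes), with medians of 1.00 and 1.69. Yet none was free of overlap. The striatal median was 0.31 without homozygous replicate 4, and the midbrain median 0.08 without homozygous replicate 6. The mean log2 level of the striatal genes was 8.85 in homozygous replicate 4 and 6.12 to 6.53 in the other 5 libraries. Among inhibitory neuron genes 13 of 14 were positive (56.8% of all named genes), with a median of 0.41 (0.28 to 0.64 with 1 library left out). Of the 14, 2 lay wholly above the wild type (7.57% of all) and 2 had an unadjusted p under 0.05 (5.05% of all). Slc32a1, which loads GABA and glycine into vesicles, had 1938, 892 and 1183 normalized reads against 650, 635 and 675, without overlap, though homozygous replicate 4, rich in striatal genes, was highest and another feature overlaps the gene on the same strand. Htr3a, a serotonin-gated channel of cortical interneurons, had 151, 256 and 247 against 141, 117 and 55.6, while for Gad2, which makes GABA, the groups overlapped.

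Slc30a3, which loads zinc into glutamate vesicles of the cortex and hippocampus, had 2408, 3344 and 2307 normalized reads against 4831, 4011 and 4395 (log2 -0.73, SE 0.20), so every homozygous library was lower. In homozygous replicates 1 to 3 it had 5912, 4144 and 5188, within or above the wild-type range. Gabbr1, a subunit of the GABA-B receptor, had 9.35, 13.6 and 17.5 against 37.2, 31.9 and 31.6 in the named feature, over which another feature lies on the same strand. Pcdhga11, of the clustered protocadherins, had 47.9, 39.7 and 70.8 against 127, 173 and 112, and its exons are shared with its cluster. The immediate early genes, which neuronal activity induces, had 3 of 21 positive (56.8% of all named genes) and 18 negative. Their median was -0.32 (-0.55 to -0.10). For homozygous replicate 5 alone against the wild type the median was 0.23. In the full comparison 0 of 21 were free of overlap and 0 had an unadjusted p under 0.05. Ptgs2, which encodes cyclooxygenase-2, had 247, 371 and 264 against 312, 903 and 462. The myelin genes had 8 of 11 positive (median 0.31, -0.20 without wild-type replicate 1, -0.01 without homozygous replicate 6, 0.99 without homozygous replicate 5 and -0.998 for homozygous replicate 5 alone), with homozygous replicate 5 and wild-type replicate 1 far below the other 4 libraries. Opalin, a protein of myelinating oligodendrocytes, had 1920, 409 and 1848 against 353, 1308 and 1184, and its direction turned without wild-type replicate 1 (-0.14 against 0.47). Most of the remaining brain lists had no stable direction. With 1 library left out, the median of oligodendrocyte precursors (-0.17) ran from -0.36 to 0.03, of hippocampus (-0.08) from -0.74 to 0.16, of choroid plexus (-0.46) from -1.28 to 0.24, of ependymal cilia (-0.33) from -0.60 to 0.32 and of blood (-0.13) from -0.90 to 0.32. The direction turned likewise for voltage-gated channels (0.27, from -0.33 to 0.46) and neuropeptides (0.03, from -0.18 to 0.34). The library whose omission turned the sign was homozygous replicate 5 for oligodendrocyte precursors and ependymal cilia and wild-type replicate 1 for choroid plexus. For hippocampus it was homozygous replicate 4 or wild-type replicate 3, for blood homozygous replicate 6 or wild-type replicate 1, for voltage-gated channels homozygous replicate 4 or wild-type replicate 1, and for neuropeptides homozygous replicate 5 or 6 or wild-type replicate 1. The direction was kept for cerebral cortex (1 of 9 positive, -0.28, from -0.38 to -0.13), thalamus and hypothalamus (8 of 12, 0.37, from 0.14 to 0.57) and synaptic vesicle release (5 of 8, 0.37, from 0.03 to 0.53), although each of these 3 turned for homozygous replicate 5 alone (0.13, -0.11 and -0.16). In none of these 10 lists did more than 1 gene have an unadjusted p under 0.05.

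Responses to stress and damage were mixed. Of 16 tested p53 targets, 10 were positive (56.8% of all named genes) and 1 lay wholly above the wild type (7.57% of all), shares near those of all genes. The median was 0.18, 0.08 without wild-type replicate 3, 0.36 without wild-type replicate 1 and 0.05 over members with a mean of at least 20. Gdf15, a cytokine induced by p53 and by the integrated stress response, had 17.5, 14.7 and 15.0 normalized reads against 8.75, 5.63 and 3.32 (log2 1.35, SE 0.48), the member without overlap. The apoptosis gene Aen had 9.35, 21.5 and 16.7 against 4.38, 9.39 and 8.30, and the death receptor Fas 16.4, 34.00 and 37.5 against 18.6, 16.9 and 12.4, each overlapping by a single library. In the integrated stress response 13 of 17 were positive, against 56.8% of all named genes. Of the 17, 1 lay wholly above and 1 wholly below, near the shares of all genes for these 2 counts. In limma 4 had an unadjusted p under 0.05 (5.05% of all), and the median was 0.32 (0.22 to 0.42). Ddit4, an inhibitor of mTORC1, had 1736, 1495 and 2053 against 1515, 862 and 1122, and Slc7a5, an amino acid transporter, 2445, 1974 and 1953 against 3584, 2583 and 2735. The heat shock list was centred near 0 (median -0.05, 6 of 13 positive).

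RNA polymerase II and its elongation factors, with which CSB works, had 7 of 12 positive, near the 56.8% of all named genes. Of the 12, 3 lay wholly above the wild type (7.57% of all) and 1 wholly below (3.78% of all). The median was 0.06. Polr2d, which with another subunit forms the stalk of the enzyme, had 415, 321 and 453 normalized reads against 240, 204 and 276 (log2 0.72, SE 0.22), and Supt4h1, a subunit of the elongation factor DSIF, 975, 956 and 907 against 727, 671 and 838. Both lay above the wild type without overlap, as did Polr2j, whereas the elongation factor gene Ell lay below it with 405, 436 and 421 against 508, 472 and 464. The kinase Cdk12 overlapped with 44.4, 61.2 and 56.6 against 68.9, 90.1 and 55.6. Chromatin remodelers had 3 of 7 positive with a median of -0.09. Sterol synthesis (8 of 13 positive, median 0.11), glycolysis and hypoxia (14 of 16, median 0.17), the circadian clock (3 of 9, median -0.05) and glucocorticoid targets (6 of 10, median 0.24) had no member past the threshold in limma, as was so for every list, and each had 0 or 1 member with an unadjusted p under 0.05.

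**Figure D5:**
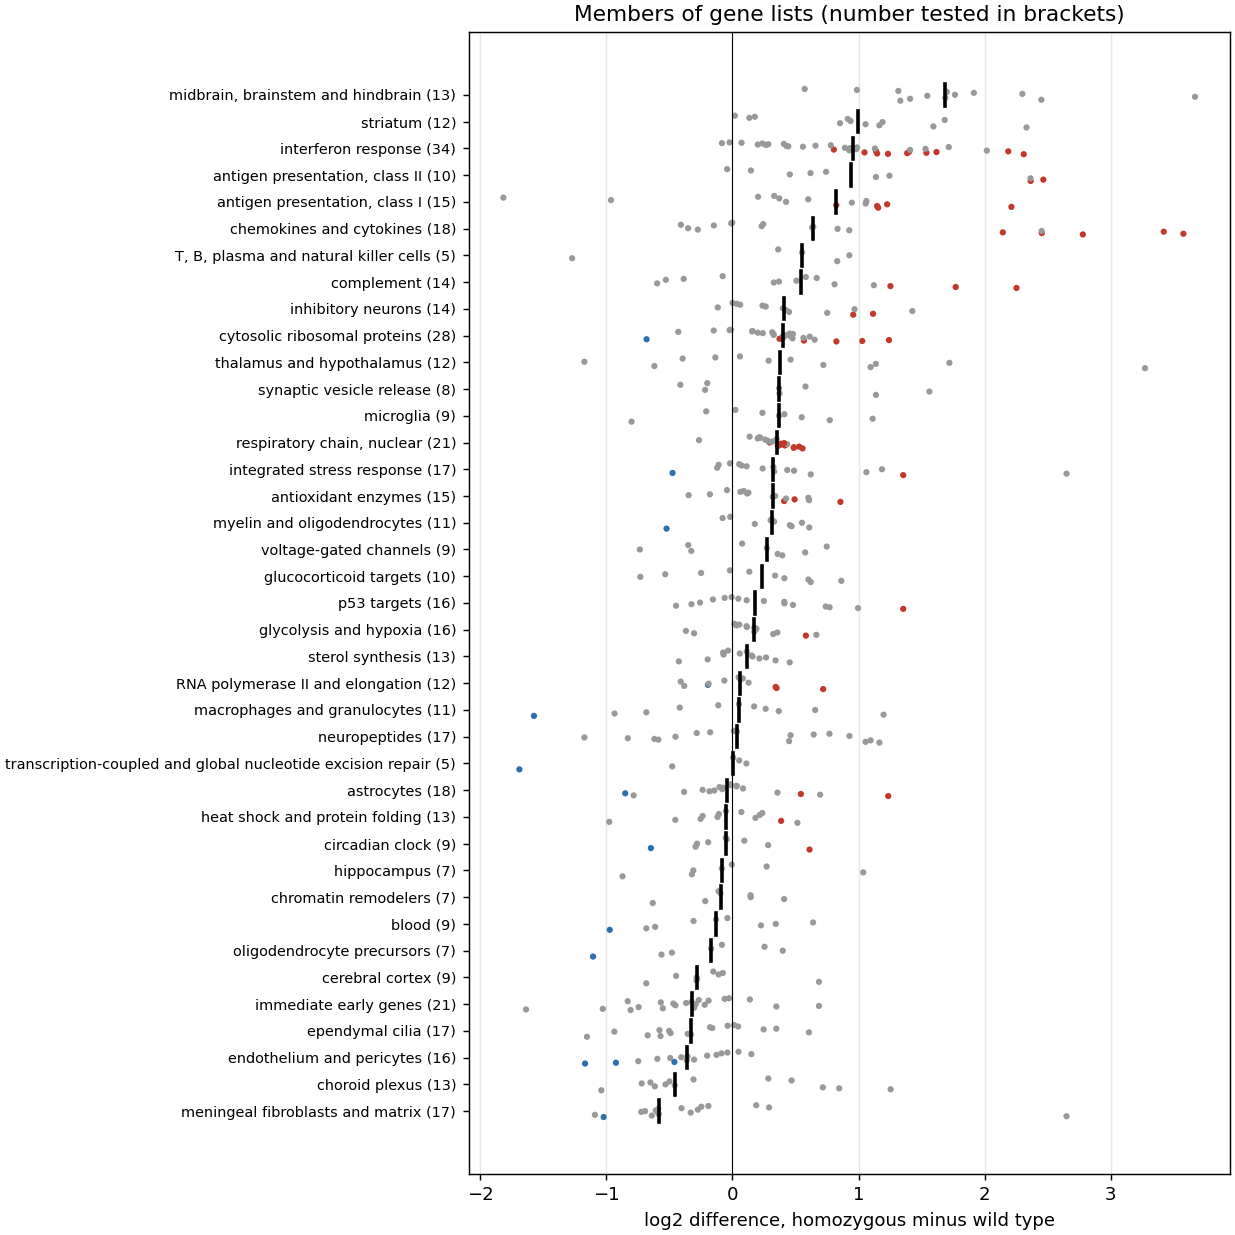
Log2 difference, homozygous minus wild type, of each tested member (points) of the gene lists with at least 5 tested members, with the list's median as a black bar; red points have all homozygous libraries above all wild-type ones and blue points have them below. The regional lists at the top, midbrain and striatum, hold grey points alone, whereas the interferon list below them holds 11 red points among 34.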

How the data were processed

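RNA was measured by sequencing; per the labels' protocols it was extracted from flash-frozen tissue with Trizol, and TruSeq libraries were sequenced in paired-end mode. FastQC and HISAT2 2.0.4 with rat build rn6 are named in the submitters' processing notes. Not given in the sources used here were the counter, annotation and strand setting. The authors deposited a normalized read signal for each feature, that is its reads divided by 1 size factor per library (0.855 to 1.20 in these 6). At a tolerance of 0.001, 100% of the values were whole multiples of 1 read, so reads were recovered.

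Groups were compared in limma 3.58.1 under R 4.3.3 (trended empirical Bayes) on log2(value + 1), with Benjamini-Hochberg adjustment over every feature with a mean of at least 5. Differences of features with few reads are understated on this scale. Alternatives were edgeR 4.0.16 (quasi-likelihood), DESeq2 1.42.0 and limma-voom on recovered reads, TMM scaling, other pseudocounts and filters, each library left out, all 11 libraries with a term for the normalization set, Eif2s3y reads as a covariate, and named protein-coding genes tested alone. The fits were tested on simulated data. Besides Ercc6, the genes named were, in each direction, the 12 of smallest p without overlap and with a mean of at least 20 (none passed the threshold), the 6 with the largest change at a mean of at least 500, and up to 4 members per list by p, leaving out names that begin with LOC, RGD, AABR, AC or Mir. Igfn1 and further members of the interferon, chemokine, complement, excision-repair, polymerase II and cell-type lists were named after their values were seen. Some items that this rule or these lists hold are not reported here. Members and lists were chosen with earlier results of these data known. Promoters came from RefSeq (GRCr8), matched by symbol.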

Additional observations from a re-analysis of the deposited data

How the results depend on the processing

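The count of features past the threshold, 3 in limma, was 51 with DESeq2, 8 with all 11 libraries and a term for the normalization set, and 0 with limma-voom and with Eif2s3y reads as a covariate; leaving out 1 library gave 0 (without homozygous replicate 6 or wild-type replicate 3) to 8 (without homozygous replicate 5). Named protein-coding genes went from 0 to 18 with DESeq2, to 1 (Ercc6) with all 11 libraries, and to between 0 and 2 when 1 library was left out, the 2 being Eif2s3y and RGD1562420 without homozygous replicate 5, and Cd74 and C3 without wild-type replicate 1. Ercc6 kept its direction under all 18 alternatives and passed the threshold with DESeq2 (-1.70) and with all 11 libraries (-1.69). Other filters, named genes tested alone and the fit to all 11 libraries could not move its difference. Settings that leave a difference fixed also count as unmoved among the values and list medians that follow. Of 1753 values of 97 named genes, 1723 kept direction and side of the threshold, 16 passed it and 14 turned direction. Those that turned with the covariate, whose coefficient rests on homozygous replicate 5 alone against the wild type, were the Rps27a feature at -0.39, which was 0.18, Cldn11 at -1.13, Mal at -1.05, Opalin at -0.998, Phlda3 at -0.048, Rad23b at -0.0030, Slc18a3 at -0.16 and Slc5a7 at -0.75. With 1 library left out, the Rps27a features ran from -0.81 to 3.42 (the former reached 0.21 without wild-type replicate 1), Cldn11 from -0.11 to 1.25, Mal from -0.12 to 1.44, Opalin from -0.14 to 1.20 and Rad23b from -0.15 to 0.21. The cause was not tested. Of 774 list medians, 741 moved by less than the spread between libraries and 33 by more; with Hoxb3 and the thalamic gene Gbx2, both at 0 in the wild type, at their bounds, the midbrain and thalamic medians were 1.70 and 0.50. No paired analysis was possible because the homozygous libraries are numbered 4 to 6 and the wild-type ones 1 to 3, so the groups share no replicate number. Depth limits genes with few reads.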
